A study of Anableps anableps with 4 samples.

Results

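The rows of the gene table that carry a glycolytic enzyme or creatine kinase symbol were followed across the tissues of the four-eyed fish Anableps anableps. Members were all rows whose symbol began with that of a hexokinase 1 or 2, glucose-6-phosphate isomerase, phosphofructokinase, aldolase, triosephosphate isomerase 1, glyceraldehyde-3-phosphate dehydrogenase, phosphoglycerate kinase 1, phosphoglycerate mutase, enolase, pyruvate kinase, lactate dehydrogenase or creatine kinase, and rows were kept apart by gene identifier. This rule found 40 of 22934 genes. PKMYT1, a protein kinase of the cell cycle, matched by its first letters only, which left 39 enzyme rows in 14 families. 6 symbols were shared by 13 rows, and such rows carry the last 5 digits of their identifier here, as in ldha-13526 and ldha-21021.

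Spatial transcriptomes came from Visium slides, on which poly(A) RNA of a 10 µm fresh frozen section is captured by barcoded spots that can each cover several cells. 4 sections were analysed. They were a head at stage 4, a joint sample with a head at stage 3 beside an eye at stage 5 (kept as 1 because positions were not used), and adult eyes 1 and 2. All carried batch number 1, no genotype or treatment was given, and the labels do not say whether the adult sections came from different animals. Each developmental group therefore had 1 section with no replicate, and the adult group had 2. Values below follow this section order.

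Glycolysis splits glucose into pyruvate in the cytosol, and lactate dehydrogenase turns pyruvate into lactate. Creatine kinases move phosphate between ATP and creatine, which buffers ATP in cells with sudden or local demand. Vertebrates carry several genes for most of these steps, some used in skeletal muscle and others in neural or general tissue, and teleost fish kept further duplicates (the suffixes a and b). Fast muscle and photoreceptors are both known for heavy use of this pathway, whereas the mature fibre cells of the lens lack organelles and rely largely on glycolysis.

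Depth and tissue composition differed between sections. The spots used (at least 100 UMIs) numbered 1135, 779, 1293 and 1488 and held 4269120, 1513171, 4318525 and 5161091 UMIs. Spot barcodes shared between sections numbered 95 to 1015, and spots were therefore kept apart by section. Each spot was placed in a class by the summed evidence of marker genes, none of them members, and 223, 186, 339 and 466 spots led no list clearly enough and stayed unassigned. Retina spots numbered 54, 63, 95 and 110, lens spots 159, 103, 301 and 390, muscle spots 195, 70, 92 and 92, epithelium spots 62, 45, 73 and 68, and cartilage spots 128, 41, 63 and 47. The markers of the own class made up 3.79 to 4.30% of the UMIs of retina spots, 15.8 to 36.4% of lens, 9.15 to 15.1% of muscle, 1.70 to 7.93% of epithelium and 0.749 to 5.58% of cartilage spots. In such spots, fewer cells of a type and less RNA per cell cannot be told apart.

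Levels are CPM, the UMIs of a row scaled to the total UMIs of the spots summed. UMI counts were not scaled by gene length, so a row is compared with itself across tissues and its share is taken within its family, and the levels of different genes are not ranked. Where 0 UMIs were counted, 3 counts would be 22.6 to 51.5 CPM in retina, 0.817 to 11.9 CPM in lens, 1.58 to 23.1 CPM in muscle, 14.0 to 29.9 CPM in epithelium and 12.3 to 70.5 CPM in cartilage spots. Tests compared each class with the mean of the other 4 classes by edgeR's quasi-likelihood test, with the section as a block and Benjamini-Hochberg adjustment over 2222 genes. A row far higher in 1 class raises that mean for each of the others, so calls in opposite directions are not independent. Ranges given for other classes or elsewhere cover these 4 classes, and not spots led by brain, pigment, connective or blood markers. The log2 folds of these tests are on the TMM scale, which rescales libraries so that most genes do not shift. Of the 40 rows, 28 had enough counts to be tested and 27 were called in at least 1 class. The matching share of all genes was not taken. In retina spots alone, 28.6% of all genes tested were called higher and 29.4% lower.

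Summed over the whole section, members held 41878, 9550.1, 5272 and 4714 CPM. The stage 4 head stood far above the other sections, and the adult eyes were lowest. With lens markers left out of the totals, the sums were 43707, 10011, 7986 and 7193 CPM, in the same order of sections. Split by class, the glycolytic enzymes of muscle spots held 57962, 20015, 21174 and 24929 CPM and those of retina spots 28265, 21218, 25752 and 26807 CPM. Lens spots held 8760.5, 6691, 1998 and 1565 CPM, epithelium spots 5562, 2511, 2518 and 3291 CPM and cartilage spots 7569, 7219, 4237 and 4964 CPM. Muscle and retina spots exceeded the 3 other classes in all 4 sections. Muscle led retina only in the stage 4 head. Spots led by brain markers held 20585, 12370, 17405 and 16323 CPM of glycolytic enzymes. In every section brain spots were below retina spots and above lens, epithelium and cartilage spots.

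Creatine kinases held 20486, 6421, 10240.3 and 8716 CPM in muscle spots and 3007, 4323, 2400.2 and 2208 CPM in retina spots. Lens spots held 266, 269, 11.4 and 16.6 CPM, cartilage spots 727, 1199, 628 and 512 CPM and epithelium spots 702, 169, 14.0 and 59.3 CPM. Among these 5 classes muscle was highest and retina next in every section. Spots led by brain markers held 9458, 1850.2, 1292 and 1327 CPM, above retina in the stage 4 head, where brain spots also held 47677 CPM of muscle markers.

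**Figure D1:**
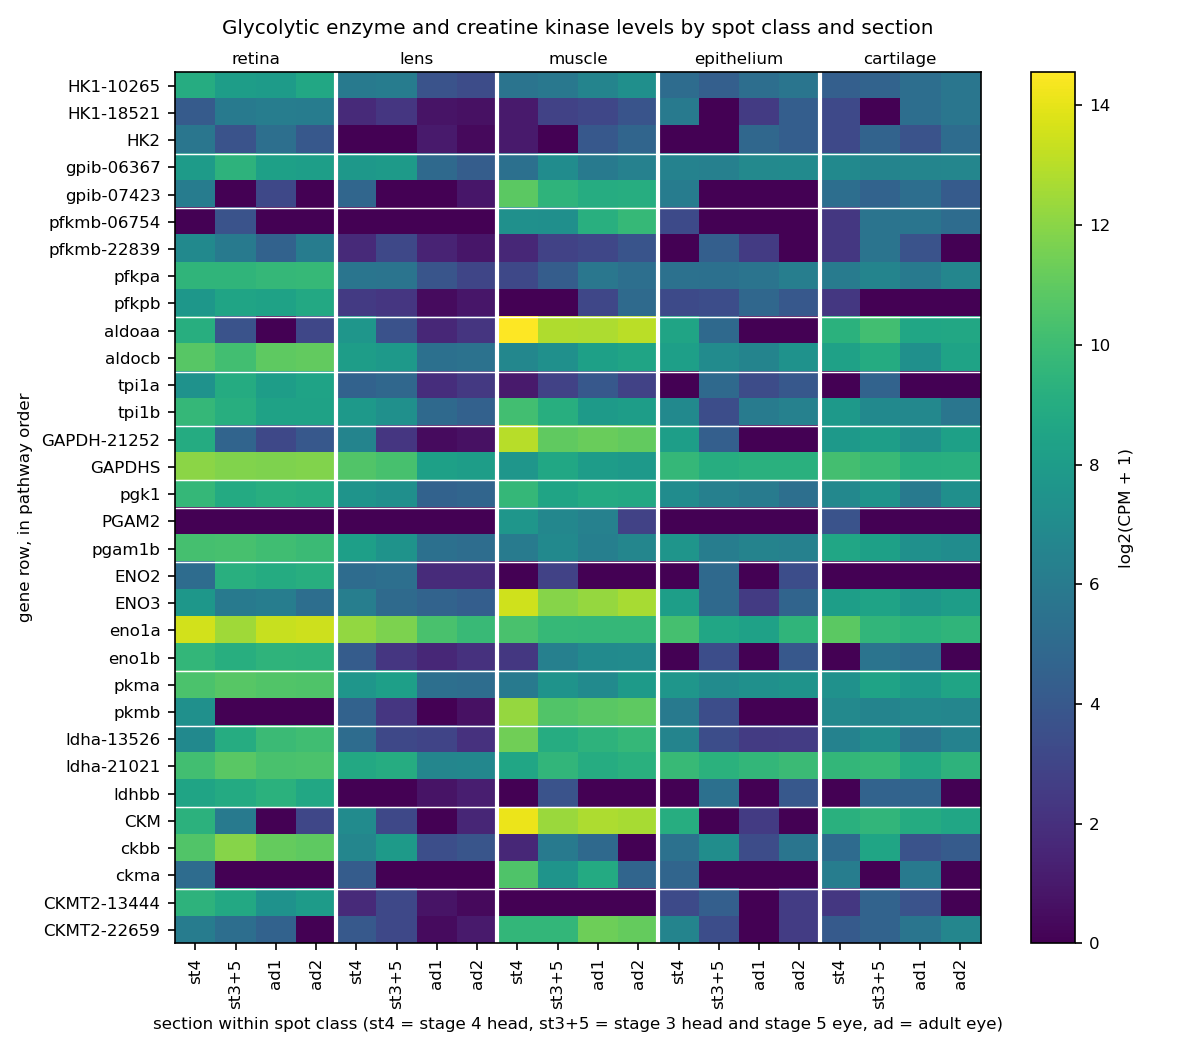
Level of the rows described, each with at least 100 UMIs (vertical, in pathway order, families divided by white lines) in the 5 spot classes of the 4 sections (horizontal), coloured by log2(CPM + 1). Bright cells for aldoaa, ENO3, CKM, pkmb and GAPDH-21252 lie in the muscle columns, and ckbb and CKMT2-13444 are brightest in the retina columns. eno1a is bright in all columns and highest in those of retina.

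Of 28 members tested, 12 were higher in muscle spots and 7 lower, against 23.6% and 10.7% of all 2222 genes tested. The median log2 fold was 0.52 over the members and 0.10 over all genes. Higher rows covered the isomerase, phosphofructokinase, aldolase, triosephosphate isomerase, glyceraldehyde-3-phosphate dehydrogenase, phosphoglycerate kinase, enolase, pyruvate kinase, lactate dehydrogenase and both kinds of creatine kinase.

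The isomerase gpib-07423, which turns glucose-6-phosphate into fructose-6-phosphate, held 1924, 695, 516 and 534 CPM in muscle spots. It lay at 0 to 68.7 CPM in the other 4 classes, below every muscle value (log2 fold 6.81 ± 0.44 (SE), adjusted p = 2.57e-11). Its family mate gpib-06367 was not called in muscle spots (log2 fold -0.71 ± 0.33 (SE), adjusted p = 0.11). Phosphofructokinase sets the pace of glycolysis, and its row pfkmb-06754 held 156, 149, 578 and 864 CPM in muscle spots. Elsewhere pfkmb-06754 lay at 0 to 49.3 CPM, again with no overlap (log2 fold 7.40 ± 0.49 (SE), adjusted p = 2.42e-10). The other row of that symbol, pfkmb-22839, was not tested and held 2.11, 6.20, 7.71 and 12.7 CPM in muscle and 120.3, 62.3, 23.2 and 67.8 CPM in retina spots. These levels rest on few counts, since pfkmb-22839 had 27, 29, 21 and 27 UMIs over all spots used. Its share of phosphofructokinase UMIs was 1.92 to 11.3% in retina, 0 to 25.0% in cartilage and 0 to 28.6% in epithelium spots. It is therefore not assigned to 1 tissue.

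Aldolase cleaves fructose-1,6-bisphosphate, and aldoaa corresponds to the muscle aldolase of mammals. Muscle spots held 24137, 7259, 6842 and 8462 CPM of it. The 4 other classes lay at 0 to 1152 CPM, far below in each section (log2 fold 7.57 ± 0.47 (SE), adjusted p = 1.54e-11). The dehydrogenase row GAPDH-21252, which makes NADH, held 8026, 2047, 2366 and 2141 CPM in muscle spots. It did not overlap the 0 to 498 CPM of the other classes (log2 fold 6.62 ± 0.45 (SE), adjusted p = 5.44e-11).

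Enolase makes phosphoenolpyruvate, and ENO3, the muscle isoform of mammals, held 11681, 3890.1, 4962 and 6505 CPM in muscle spots. Other classes held 4.67 to 353 CPM, and none reached a muscle value (log2 fold 6.42 ± 0.36 (SE), adjusted p = 8.51e-12). Pyruvate kinase, the last ATP-yielding step, was represented in muscle by pkmb at 4891, 1557, 1795 and 1938 CPM. The rest lay at 0 to 155 CPM, without overlap (log2 fold 7.53 ± 0.44 (SE), adjusted p = 9.51e-12). Phosphoglycerate kinase pgk1, which makes the first ATP of the pathway, held 832, 366, 478 and 432 CPM in muscle and 825, 486, 565 and 520.0 CPM in retina spots. The isomerase tpi1b, which interconverts the triose phosphates, held 1140.4, 552, 239 and 279.5 CPM in muscle and 825, 561, 341 and 332 CPM in retina spots. Both were called higher in muscle spots (log2 folds 2.13 and 2.20), and both had retina values that overlapped those of muscle.

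Among creatine kinases, CKM, the cytosolic muscle form, held 18157, 5373, 7081 and 6499 CPM in muscle spots. The 4 other classes held 0 to 776 CPM, all below (log2 fold 7.47 ± 0.51 (SE), adjusted p = 5.87e-11). The mitochondrial row CKMT2-22659 held 801, 800.3, 2643 and 2192 CPM, which lay above the 0 to 102 CPM elsewhere (log2 fold 6.66 ± 0.48 (SE), adjusted p = 1.40e-10). The second cytosolic row, ckma, varied far more between muscle samples, at 1525, 186, 485 and 25.4 CPM from 2889, 30, 63 and 4 UMIs. Adult eye 2 stood low and overlapped the 0 to 69.8 CPM of other classes, although ckma was called higher (log2 fold 6.77 ± 0.45 (SE), adjusted p = 3.27e-11). PGAM2, the muscle phosphoglycerate mutase of mammals, was not tested and shared the low adult eye 2 value, with 203, 105, 84.8 and 6.35 CPM from 385, 17, 11 and 1 UMIs in muscle spots. Beyond muscle, PGAM2 had 3 UMIs in cartilage spots of the stage 4 head and none in the other sums of the 5 classes.

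Lower in muscle spots were GAPDHS (log2 fold -1.81), pfkpa (-1.82), pgam1b (-1.21), pkma (-0.93), ckbb (-3.16), ldhbb (-2.76) and CKMT2-13444, which had 0 UMIs in muscle spots of all 4 sections. All 7 were called higher in retina spots, which form part of the mean used for muscle. Without adult eye 1, 4 members in place of 7 were called lower in muscle spots, against 6.41% of all genes in that fit. The count of higher rows stayed 12, against 17.6%.

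**Figure D2:**
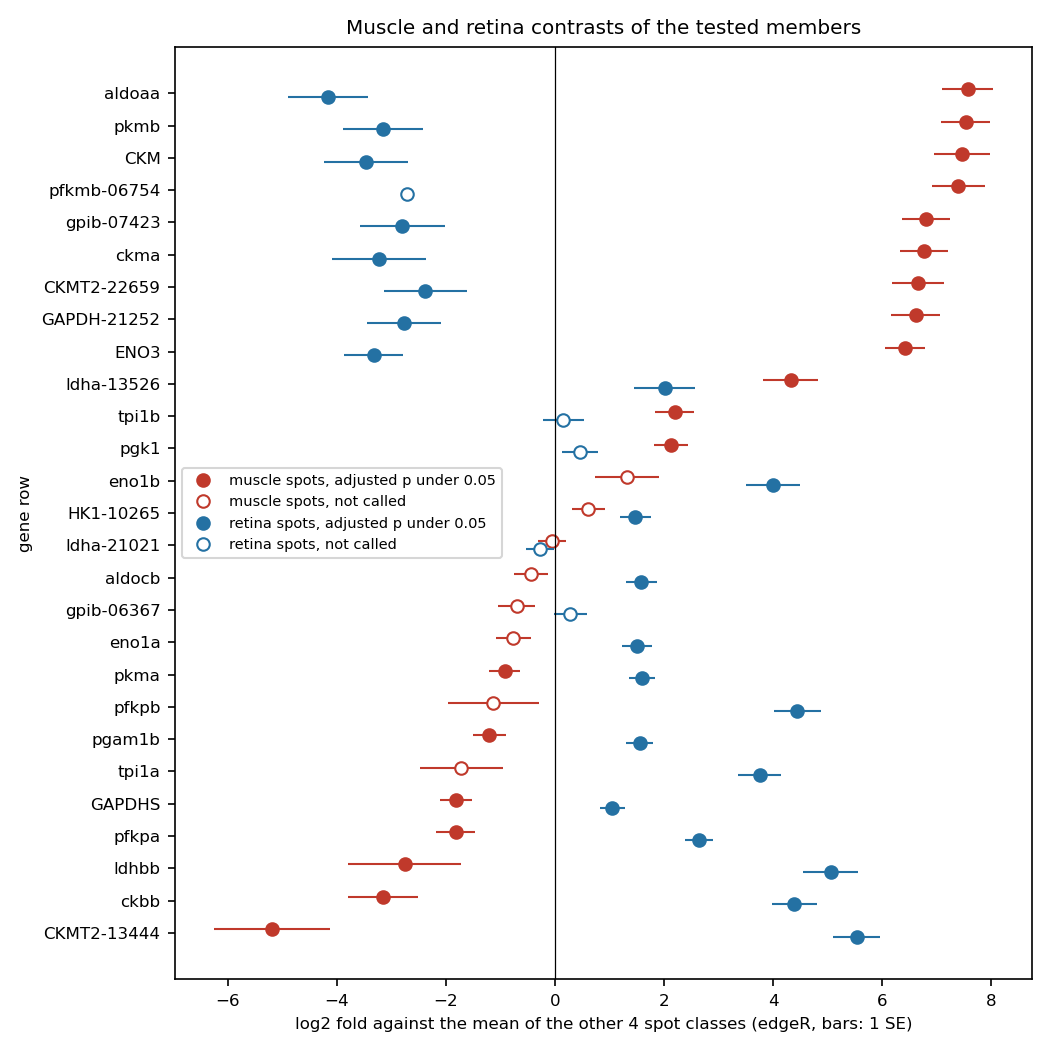
Log2 fold (horizontal, TMM scale, bars of 1 SE) of the tested rows described (vertical) in muscle spots (red) and retina spots (blue) against the mean of the other 4 classes. Filled points had an adjusted p under 0.05, the retina point of pfkmb-06754 is drawn without its bar because its SE, 193, is far wider than the axis, and ldha-13526 was the row called higher in both classes.

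In retina spots a different set of rows was high. 14 of 28 members were higher and 9 lower, against 28.6% and 29.4% of all genes tested, with a median log2 fold of 0.75 over members and -0.17 over all genes. With total UMIs in place of TMM, the split was 18 higher and 4 lower, against 58.0% and 8.60% of all genes, and the median over all genes moved to 1.52. All 14 rows called higher kept a positive log2 fold under that scaling, which is no check on them since it raised retina folds in general. 1 of the 14, ldha-13526, was also called higher in muscle spots. The rows eno1a, GAPDHS, pgam1b and tpi1a were also called higher in lens spots on the TMM scale. On that scale the mean level of eno1a was 3855 in retina and 6533 in lens spots. For GAPDHS it was 1450 and 2004, so for both rows lens exceeded retina, the reverse of the order by CPM.

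Hexokinase traps glucose in the cell, and HK1-10265 held 515, 274, 256 and 422 CPM in retina spots. The other classes held 9.26 to 152 CPM, and no section overlapped (log2 fold 1.48 ± 0.28 (SE), adjusted p = 1.21e-04). The platelet-type phosphofructokinase rows pfkpa and pfkpb held 739, 735, 844 and 859 CPM and 206, 361, 341 and 437 CPM. In the other classes tested they reached at most 102 and 31.8 CPM (log2 folds 2.65 and 4.45, adjusted p = 2.93e-08 and 3.43e-08). The aldolase aldocb, whose mammalian relative ALDOC is the brain form, held 1735, 1159, 2013 and 2133 CPM in retina spots. Elsewhere aldocb held 41.0 to 494 CPM, lower in all sections (log2 fold 1.59 ± 0.28 (SE), adjusted p = 4.68e-05).

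The second triosephosphate isomerase row, tpi1a, held 172, 498, 279 and 354 CPM in retina spots. Its values elsewhere were 0 to 29.9 CPM, below all of these (log2 fold 3.76 ± 0.39 (SE), adjusted p = 6.99e-08). GAPDHS, whose mammalian counterpart is a sperm enzyme, was the glyceraldehyde-3-phosphate dehydrogenase row of retina spots at 4209.6, 3501, 3492 and 3579.8 CPM. It held 201 to 1532 CPM elsewhere, with no overlap (log2 fold 1.05 ± 0.24 (SE), adjusted p = 6.51e-04). The general phosphoglycerate mutase pgam1b held 1219.9, 1271, 1084 and 972 CPM. Other classes lay at 36.5 to 386 CPM, below each retina value (log2 fold 1.55 ± 0.25 (SE), adjusted p = 1.48e-05). Pyruvate kinase came from pkma at 1375, 1757, 1533 and 1515 CPM. The remaining classes held 35.7 to 358 CPM, all below (log2 fold 1.59 ± 0.24 (SE), adjusted p = 6.39e-06).

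The general enolase eno1a held 11976, 5694, 10313 and 11011 CPM in retina spots, lowest in the stage 3 head and stage 5 eye. By CPM, lens, muscle, epithelium and cartilage spots lay at 318 to 4701, below the lowest retina value. On the TMM scale of the test the lens mean was above that of retina, as given above (retina log2 fold 1.51 ± 0.27 (SE), adjusted p = 6.97e-05). Brain spots of the adult eyes, given below, were above that value. Its duplicate eno1b, at 808, 561, 697 and 686 CPM, was set apart more sharply from the 0 to 127 CPM elsewhere (log2 fold 4.01 ± 0.50 (SE), adjusted p = 6.18e-07). ENO2, the neuronal enolase of mammals, was not tested and held 34.4, 586, 503 and 558 CPM. The stage 4 head stood apart with 2 UMIs. Inner retina markers held 5498, 8136, 5823 and 7077 CPM in retina spots and photoreceptor markers 35464, 32669, 37134 and 30786 CPM, a division of the marker list made after the levels were seen, and the part of layer composition in the ENO2 values was not tested.

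The cytosolic creatine kinase of the brain type, ckbb, held 1564, 3788, 2207 and 1952 CPM in retina spots. Lens, muscle, epithelium and cartilage spots did not pass 376 CPM (log2 fold 4.39 ± 0.41 (SE), adjusted p = 2.11e-08). Brain spots, given below, passed it in all sections but the stage 4 head. Mitochondrial creatine kinase came from CKMT2-13444 at 687, 436, 170.3 and 249 CPM. The other classes held 0 to 23.5 CPM, all below (log2 fold 5.53 ± 0.42 (SE), adjusted p = 6.93e-09). In retina spots both developmental values of CKMT2-13444 were above both adult values, with a smallest ratio of 1.75, under 2-fold. The same order held for tpi1b and pgam1b, with smallest ratios of 1.65 and 1.13. The reverse order, both adult values above both developmental values, held for ldha-13526, aldocb and pfkpa. Their smallest ratios of adult over development were 1.86, 1.16 and 1.14. The share of all genes with either order was not taken.

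Lactate dehydrogenase UMIs came from 3 rows with different tissue patterns. ldhbb, of the heart-type form that favours lactate oxidation in mammals, held 361, 473, 619 and 422 CPM in retina spots and 0 to 39.9 CPM elsewhere (log2 fold 5.06 ± 0.51 (SE), adjusted p = 4.57e-08). ldha-13526, of the muscle-type form that favours lactate production, held 2659.9, 515, 686 and 813 CPM in muscle spots (log2 fold 4.33 ± 0.51 (SE), adjusted p = 4.28e-07) and 120.3, 511, 952 and 1100.3 CPM in retina spots (log2 fold 2.02 ± 0.56 (SE), adjusted p = 0.00401). In the retina the stage 4 head was low, within the range of lens, epithelium and cartilage spots, and the adult eyes were high. The stage 4 head held more of ldha-13526 in muscle than in retina spots, and the adult eyes held more in retina than in muscle spots, a difference that was not tested. ldha-21021 held 1117, 1819, 1339.5 and 1372 CPM in retina and 907, 638, 799 and 959 CPM in epithelium spots and was called in no class, with log2 folds of -0.28 to 0.42.

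The rows lower in retina spots included ENO3, aldoaa, CKM, pkmb, GAPDH-21252, ckma, gpib-07423 and CKMT2-22659. These 8 were called higher in muscle spots, which form part of the mean used for retina. Muscle markers held 5636, 561, 217 and 332 CPM in retina spots, and the stage 4 head was also the section with the highest retina levels of muscle rows, such as CKM at 653, 62.3, 0 and 7.54 CPM. The part of muscle RNA in these retina levels was not tested.

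Within families, the shares showed the same division without any scaling between libraries. Muscle spots took 83.6 to 98.0% of their isomerase UMIs from gpib-07423, 85.7 to 94.0% of phosphofructokinase from pfkmb-06754 and 94.0 to 99.4% of aldolase from aldoaa. In retina spots the leading rows were gpib-06367 with 78.9 to 100%, pfkpa with 62.8 to 69.9% and aldocb with 73.7 to 99.3%. For each of these 3 steps the leading row of muscle was a minor row of the retina in every section.

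Glyceraldehyde-3-phosphate dehydrogenase UMIs came from GAPDH-21252 in muscle (82.5 to 97.5%) and from GAPDHS in retina (89.4 to 99.8%) and lens (94.1 to 99.9%). Enolase UMIs came from ENO3 in muscle (80.3 to 89.8%) and from eno1a in retina (82.5 to 92.0%), lens (97.4 to 97.9%) and epithelium (81.6 to 98.6%). Pyruvate kinase UMIs came from pkmb in muscle (88.9 to 98.7%) and from pkma in retina (89.9 to 100%) and lens (89.8 to 100%). Lens and retina thus led with the same row of these 3 families, and epithelium and cartilage did so too. Epithelium spots took 74.4 to 100% from GAPDHS and 76.7 to 97.3% from pkma. Cartilage spots took 65.4 to 84.3% from GAPDHS, 65.3 to 87.1% from eno1a and 58.8 to 78.9% from pkma.

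Cytosolic creatine kinase UMIs came from CKM in muscle (92.2 to 99.6%) and from ckbb in retina (69.5 to 100%). CKMT2-22659 took 100% of the mitochondrial kind in muscle, and CKMT2-13444 took 88.0 to 100% in retina. Triosephosphate isomerase kept tpi1b as the main row of muscle (93.9 to 99.9%), while tpi1a took 17.2 to 51.6% in retina. The lower ends of the retina shares for aldocb, ckbb, gpib-06367 and GAPDHS all lay in the stage 4 head, the section with the most muscle marker UMIs in retina spots.

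**Figure D3:**
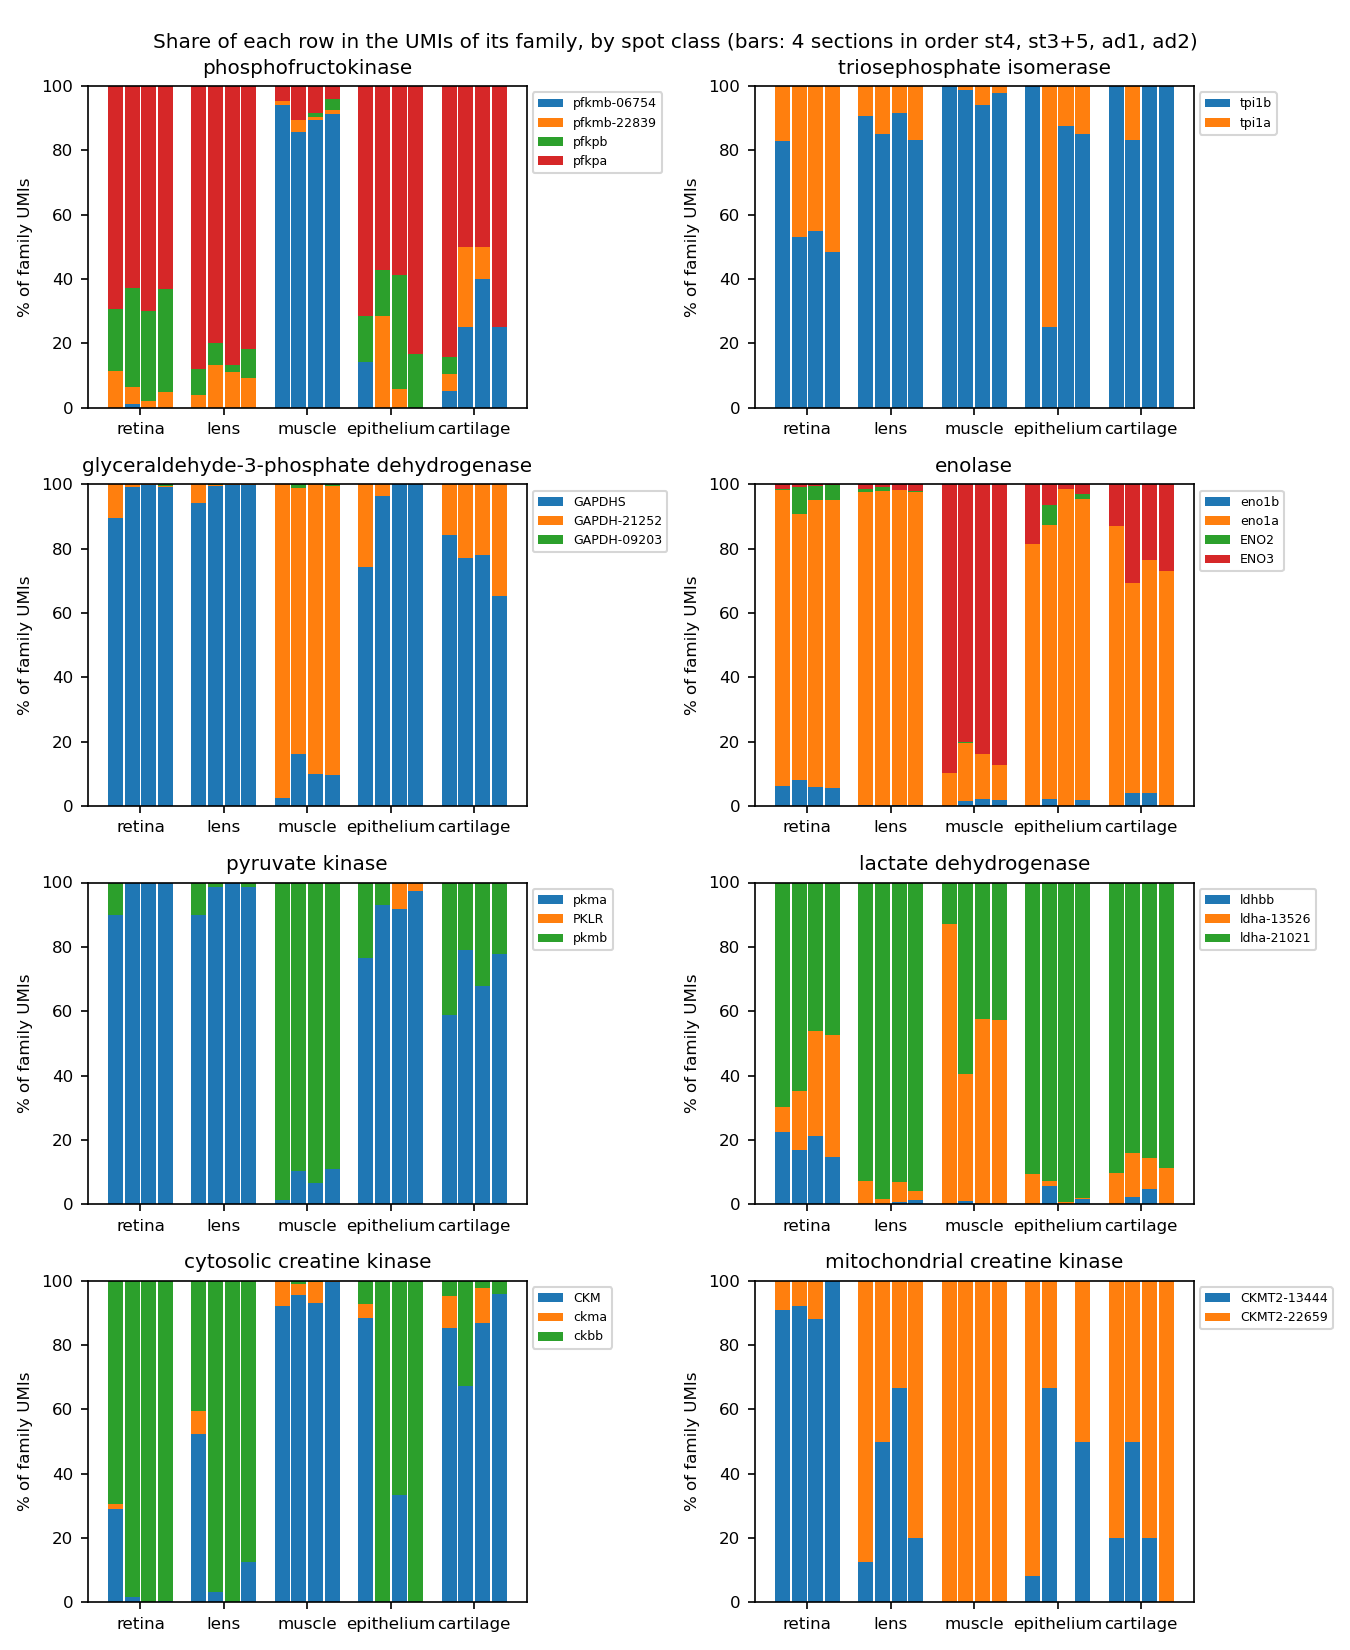
Share of each row (colour) in the UMIs of its family (vertical, percent), for 8 families with several rows in the 5 spot classes, each with 4 bars for the sections in order. The leading colour changes between muscle and retina in most panels, while tpi1b leads or nearly equals tpi1a in both and lactate dehydrogenase mixes ldha-13526, ldha-21021 and ldhbb, and bars of epithelium and cartilage rest on few UMIs for some families.

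In lens spots, lens markers and crystallins took 49.4% and 47.4% of the UMIs in adult eyes 1 and 2, against 35.2% and 25.0% in the developmental sections. 5 of 28 members were called higher in lens spots and 10 lower, against 25.7% and 21.4% of all genes tested. With total UMIs in place of TMM, 0 were called higher and 21 lower, with 4.14% and 64.0% of all genes, and the median over all genes moved from -0.18 to -2.02. DESeq2 called 3 higher and 13 lower, with 20.4% and 34.3% of all genes. Leaving out either adult eye left 3 higher, against 15.5% of all genes without adult eye 1 and 17.4% without adult eye 2.

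The enolase eno1a, which is also the tau-crystallin of the lens in some birds and reptiles, held 4701, 3349.6, 1311 and 937 CPM in lens spots. Both developmental values lay above both adult values. eno1a was called higher on the TMM scale (log2 fold 2.50 ± 0.26 (SE), adjusted p = 1.09e-07), while by CPM it was above the mean of the other classes in the developmental sections only. GAPDHS, pgam1b, gpib-06367 and tpi1a were called higher on the TMM scale with log2 folds of 1.59, 0.76, 1.18 and 1.21, which turned to -0.21, -1.04, -0.36 and -0.41 with total UMIs. ldhbb, whose relative is the epsilon-crystallin of duck lenses, had 0, 0, 2 and 5 UMIs in lens spots.

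The rows lower in lens spots included CKMT2-22659, gpib-07423, pkmb, CKM, ckma, aldoaa, pfkmb-06754, GAPDH-21252 and ldha-13526. These 9 were higher in muscle spots, which form part of the mean used for lens. pfkmb-06754 had 0 UMIs in lens spots of all 4 sections. CKM in lens spots held 129.6, 7.91, 0 and 1.91 CPM, and muscle markers there held 1221, 146, 43.4 and 46.6 CPM, both highest in the stage 4 head.

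Epithelium spots had no member called higher by edgeR at an adjusted p of 0.05, against 16.7% of all genes tested. 0 members had a positive log2 fold at an unadjusted p under 0.05, and DESeq2 also called 0, against 17.6% of all genes. 15 members were called lower, against 10.9%, with a median log2 fold of -1.35 over members and -0.19 over all genes. All 15 were called higher in muscle or retina spots, which form part of the mean used for epithelium. They included the hexokinase HK1-10265 (-1.04), the aldolase aldocb (-1.12), pgk1 (-1.66), eno1a (-1.88) and the muscle rows aldoaa (-3.29) and ENO3 (-2.56), as log2 folds. The row ldha-21021 held 90.6 to 99.4% of lactate dehydrogenase UMIs here. This was not particular to epithelium, since its share was 92.9 to 98.5% in lens and 84.1 to 90.3% in cartilage spots. In retina spots it was 46.0 to 69.9%. Without adult eye 1 the count of lower rows was 8, against 2.88% of all genes, and without adult eye 2 it was 4, against 3.22%.

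5 of 28 members were higher and 3 lower in cartilage spots, against 14.1% and 5.90% of all genes tested. The higher rows included aldoaa, CKM, GAPDH-21252 and pfkmb-06754 (log2 folds 2.47, 2.58, 2.03 and 2.27). These muscle rows were above the arithmetic mean of the other classes in at most 1 of 4 sections, since muscle spots held far more of each. Muscle markers held 4234, 5009, 5419.8 and 6277 CPM in cartilage spots, and the part of neighbouring muscle was not tested. eno1a, HK1-10265 and tpi1a were lower (-1.37, -1.57 and -2.95), and all were called higher in retina spots, part of the mean used for cartilage. The count of higher rows was 3 without the stage 3 head and stage 5 eye, without adult eye 1 or without adult eye 2. All genes called higher were then 9.96, 7.89 and 8.96%. Lower rows numbered 1 without the stage 4 head or without the stage 3 head and stage 5 eye, against 3.48 and 2.20% of all genes. They numbered 0 without adult eye 1, against 1.88%, and 0 with total UMIs, where 1.71% of all genes were called lower.

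Outside these 5 classes, spots led by brain and myelin markers also held rows seen in the retina. eno1a held 2683, 1962, 10450.5 and 8869 CPM in brain spots, and ckbb held 134, 1773, 1026 and 1082 CPM. For eno1a the adult eyes were high and the developmental sections low. ckbb was low in the stage 4 head, whose brain spots held the muscle markers given above. Retina markers in brain spots held 855, 2264, 6555 and 7664 CPM, low in the developmental sections, lowest in the stage 4 head, and high in the adult eyes. Their part in the eno1a and ckbb levels of brain spots was not tested. ldha-13526 held 637, 428, 152 and 297 CPM in brain spots and 115, 0, 5.51 and 9.43 CPM in connective spots.

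**Figure D4:**
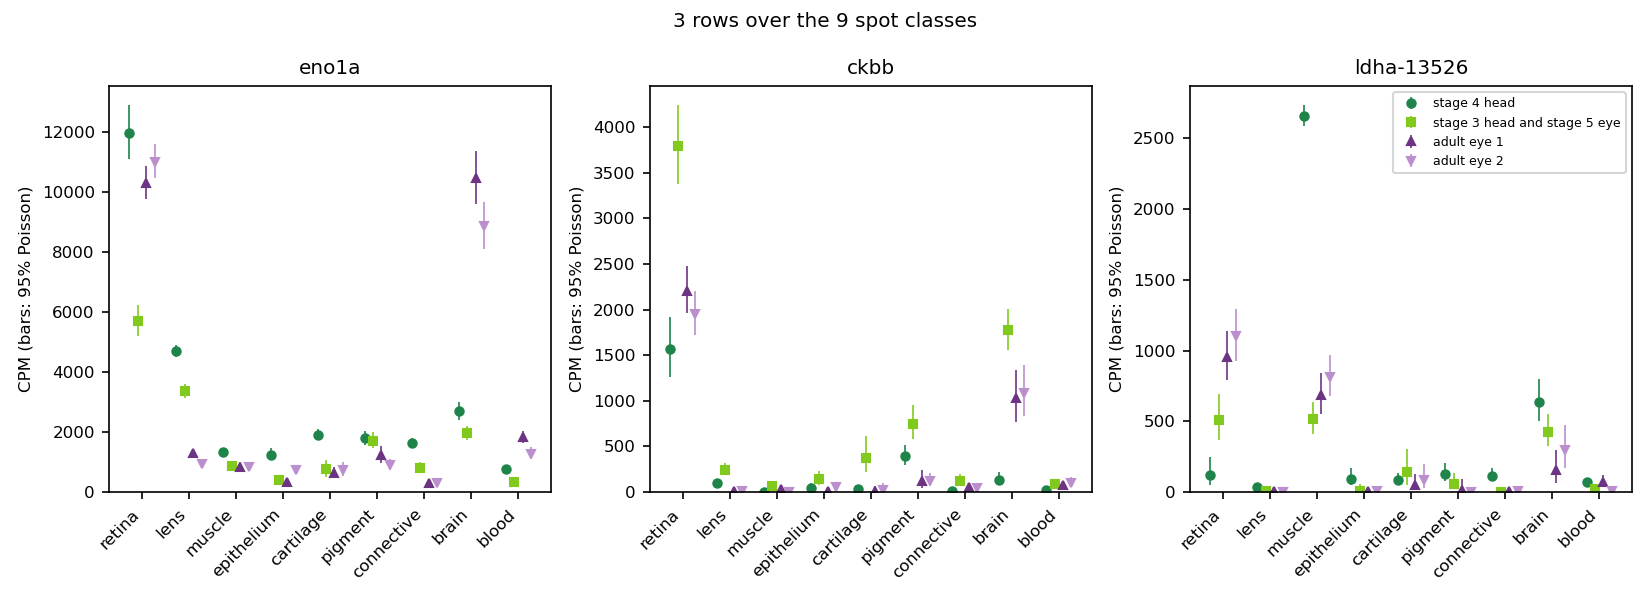
Level (vertical, CPM, bars of 95% Poisson intervals for counting error) of eno1a, ckbb and ldha-13526 in all 9 spot classes (horizontal), with 1 point per section. eno1a peaks in retina spots and in brain spots of the adult eyes, ckbb in retina spots, and ldha-13526 in muscle spots of the stage 4 head and retina spots of the adult eyes.

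Development was set against the adult within each class by size alone, since each developmental group had 1 section. The developmental sections were heads, 1 of them with an eye beside it, and the adult sections were eyes. Stage and the part of the body sectioned therefore cannot be told apart. A member was counted where each developmental value was 2-fold or more above each adult value, or the reverse. In lens spots 14 of 15 members (those whose larger group had 50 UMIs or more) were higher in development, against 25.7% of all genes. The median log2 ratio was 2.65 over members and 0.77 over all genes. ENO3 was the exception at 75.0, 31.6, 23.4 and 19.6 CPM. Among the 14, the calls of CKM and aldoaa rest on very few counts. Lens spots of the joint sample held 7.91 CPM of CKM and 11.9 CPM of aldoaa, where 3 counts would be 11.9 CPM. Only the stage 4 head was well above that level, at 129.6 and 198 CPM. The same few counts stand behind both rows under the other totals below.

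Markers of other tissues ran the same way in lens spots. All 8 other marker lists were at least 2-fold higher in both developmental sections than in both adult eyes. Blood markers held 3305, 3164, 88.5 and 68.1 CPM, brain markers 1029.7, 767, 11.02 and 7.63 CPM, epithelium markers 1148, 1079.6, 212 and 234 CPM and retina markers 809, 755, 144 and 157 CPM. Muscle markers, at the values given above, were highest in the stage 4 head, as were CKM and aldoaa, which are among the 14 members. The part of other tissues in the lens counts was not tested.

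Those lens ratios depended on what the adult lens totals held. With lens markers left out of the totals, 13 of 15 members passed, against 15.4% of all genes, and eno1a dropped out. With the 50 most abundant adult lens genes that were no members left out instead, an alternative chosen after seeing the data, 3 of 15 passed (pkma, gpib-06367 and ckbb), against 3.47% of all genes. The 50 genes held 58.7%, 50.8%, 82.7% and 83.9% of lens UMIs. On that scale the median log2 ratio was 1.25 over members and -0.64 over all genes. The pyruvate kinase pkma then held 485, 603, 229 and 221 CPM, the isomerase gpib-06367 523, 498, 173 and 117 CPM and ckbb 242, 498, 59.7 and 82.8 CPM of the remaining UMIs. Retina markers, which mark the class where pkma and ckbb were called higher, held 1961, 1534, 832 and 976 CPM on the same scale, and their smallest developmental value was 1.57 times their largest adult value. Brain markers held 2495, 1559, 63.7 and 47.3 CPM and blood markers 8008, 6427, 511 and 422 CPM, and 4 of the 8 other lists were still at least 2-fold higher in development. Their part in the 3 members was not tested. Each developmental value was above each adult value for 13 of 15 members, the exceptions being eno1a and ENO3, and for 15.4% of all genes.

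**Figure D5:**
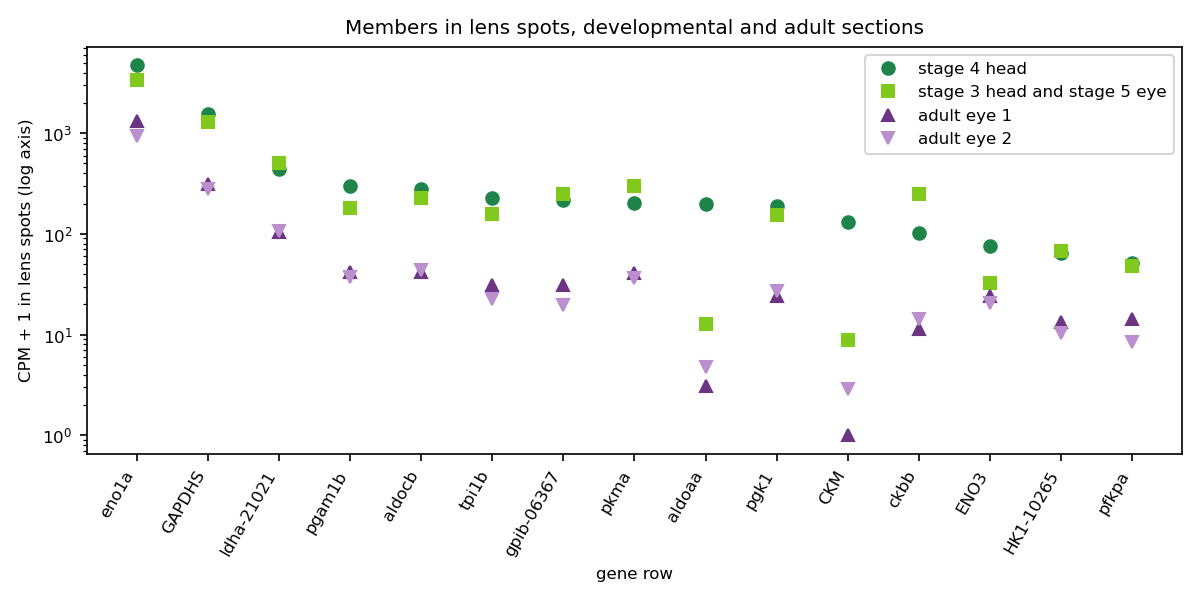
Level in lens spots (vertical, CPM + 1 on a log axis) of the 15 rows with enough UMIs (horizontal), with 1 symbol per section and all UMIs in the totals. Green developmental symbols lie above purple adult symbols for 14 rows by at least 2-fold. Those of ENO3 lie in the same order, with a smallest ratio of 1.35.

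In muscle spots 2 of 22 members were higher in the adult eyes, against 21.3% of all genes, and 0 were higher in development, against 1.97%. The 2 members were CKMT2-22659 and pfkmb-06754, whose values stand above, and for them too stage and the part sectioned cannot be told apart. The lowest adult value was 2.74 times the highest developmental value for CKMT2-22659 and 3.70 times for pfkmb-06754. For ckma and PGAM2 the adult eyes differed so far from each other that 2 members counted as higher in development once adult eye 1 was left out, and 4 then counted as higher in the adult. Retina spots had 0 of 19 members past 2-fold in either direction, against 2.94% (developmental sections higher) and 10.8% (adult eyes higher) of all genes. ldha-13526, at the values given above, passed, among the alternatives run, only without adult eye 1. Epithelium spots had 0 of 7, against 7.78% and 27.5%, and cartilage spots 0 of 12, against 6.10% and 9.27%.

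The remaining rows were sparse. HK2, the insulin-responsive hexokinase of mammals, had 119 UMIs over the 4 sections, and HK1-18521 had 102. HK1-18521 held 17.2, 62.3, 69.7 and 67.8 CPM in retina spots and 0 to 59.9 CPM elsewhere. 7 rows had under 100 UMIs, at most 61 (LDHD, which oxidises D-lactate), and they included PKLR with 6 UMIs, aldoca with 4, GAPDH-09203 with 27 and PKMYT1 with 30. ENO4 and CKMT2-21978 had 0 UMIs. In the shallowest section 3 counts would be 1.98 CPM, and the upper 95% Poisson bound was 2.44 CPM.

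Genes that feed or drain the pathway were read from a list of 51 symbols, of which 61 rows were in the files and 23 were tested. In muscle spots 15 of 23 were higher and 1 lower, against 23.6% and 10.7% of all genes. The glycogen phosphorylase pygma, which releases glucose units from glycogen, held 221, 161, 324 and 279.5 CPM in muscle spots and had 0 UMIs in retina spots (log2 fold 6.95 ± 0.48 (SE), adjusted p = 5.02e-10). AK1, an adenylate kinase, held 6547, 3518, 2735 and 2986 CPM in muscle and 498, 586, 271 and 407 CPM in retina spots (log2 fold 4.32 ± 0.35 (SE), adjusted p = 7.35e-10). SLC25A4, the ADP/ATP carrier, gpd1b, which passes NADH electrons to glycerol-3-phosphate, and gyg1a, the primer of glycogen, were also higher (log2 folds 6.86, 6.12 and 3.23).

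In retina spots 6 of 23 were higher and 4 lower, against 28.6% and 29.4%. The glucose transporter slc2a1a held 859, 299, 527 and 407 CPM in retina and 1.06, 12.4, 0 and 0 CPM in muscle spots, without overlap (log2 fold 6.79 ± 0.49 (SE), adjusted p = 3.53e-09). The transporters slc2a3b and slc2a1b (log2 folds 3.06 and 2.09) and 1 of the GOT1 rows, an aspartate aminotransferase (5.17), were also higher. GAMT, which makes creatine, held 640.4, 261, 154 and 95.3 CPM in muscle and 51.5, 12.5, 15.5 and 7.54 CPM in retina spots (log2 fold -3.18 ± 0.71 (SE), adjusted p = 5.86e-04). In lens spots 2 of 23 were higher and 8 lower, against 25.7% and 21.4%, led by AK1, hif1aa, gyg1a and agla lower (log2 folds -2.57, -1.58, -1.69 and -2.45) and gyg1b higher (1.69), all on the TMM scale. Epithelium spots had 3 of 23 higher and 2 lower, against 16.7% and 10.9%, and cartilage spots 1 higher and 0 lower, against 14.1% and 5.90%.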

How the data were processed

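The deposited values were unnormalized UMI counts for each gene and spot. The file headers name Space Ranger 3.1.3 as the software. Aligner settings, build and annotation are not given in the sources used here, so reads shared between near-identical rows could not be examined. Members, marker lists and other lists were chosen with earlier results of these data known.

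Spots with at least 100 UMIs were used. In each section, log-transformed counts per 10000 were turned to z values, and a spot took the class with the highest mean z of 9 marker lists where that mean was at least 0.3, led the next by 0.2 and rested on 3 marker UMIs. No doublet caller was run. Counts were summed per section and class (at least 10 spots) and fitted with edgeR 4.0.16 in R 4.3.3 (quasi-likelihood test after filterByExpr and TMM, sections as blocks), called at an adjusted p under 0.05. P-values measure how far class differences varied between these 4 sections, since the block removes differences in level between sections. The sections differ in stage and part of the body, and the spread may also be technical, so it is not a spread between replicates. Levels have exact 95% Poisson intervals and shares exact binomial intervals, for counting error only. Section totals were 4271990, 1514666, 4322947 and 5167411 UMIs. Named rows had at least 100 UMIs, and other pathway genes were named where called in muscle, retina or lens spots, at most 5 a class by smallest p. On simulated counts for 2222 genes in the muscle contrast, 20, 50, 94 and 96% of genes changed 1.5-, 2-, 4- and 8-fold were recovered. That simulation set a dispersion of 0.1 and no other differences between classes, so its rates may not hold for the measured counts. Alternatives used DESeq2 1.42.0, no TMM, no filter, other spot minimums, Leiden clusters (scanpy 1.11.5), a stricter lead of 0.5, no block and fewer sections. 1 member is kept in the counts and sums and its values are not reported here. No sequences are shown.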

Additional observations from a re-analysis of the deposited data

Results flagged for a closer look

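Of 83 pairs of a member and a class examined, 2 lay on opposite sides of the other classes in developmental and adult sections. Neither difference was tested, and the share of all genes with this pattern was not taken. The hexokinase HK1-10265 in muscle spots, against the mean of the other 4 classes by CPM, had log2 ratios of -1.74 and -0.78 in the developmental sections (stage 4 first) against 0.11 and 0.20 in adult eyes 1 and 2. The enolase eno1a in lens spots had log2 ratios of 0.19, 0.80, -1.21 and -1.83 in the same order, where the lens marker share was 35.2%, 25.0%, 49.4% and 47.4%. The adult ratios of HK1-10265 rest on few counts, at 92.5 and 152 CPM in muscle sums of 129781 and 157407 UMIs. In the lowest section, all hexokinase rows together had 10 UMIs in muscle spots.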

How the results depend on the processing

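Of 80 calls of a member in a class, 33 kept direction and significance under every alternative run. Of 1188 alternative values, 983 kept both, 199 lost significance and 6 reversed. Reversals with no TMM factors were in lens spots (pgam1b -1.04, GAPDHS -0.21, gpib-06367 -0.36, tpi1a -0.41), and with Leiden clusters in epithelium spots (pkmb 0.36, ckma 1.00), all as log2 folds. The cause of the changes below was not tested. Counts of members are given as called, with the main count first. Brackets give the percent of all genes tested that the same fit called in that class and direction. With no TMM factors, lower in retina went from 9 to 4 (8.60%), higher in lens from 5 to 0 (4.14%) and lower in lens from 10 to 21 (64.0%). Lower in epithelium went from 15 to 8 (5.00%) and lower in cartilage from 3 to 0 (1.71%). A fit without the section as a block did not pair classes by section (no replicate block). Lower in retina was then 3 (25.3%), higher in lens 3 (22.9%) and lower in lens 3 (15.3%). Lower in epithelium was 5 (5.81%), higher in cartilage 2 (9.09%) and lower in cartilage 1 (2.61%). Leiden clusters gave 3 higher in lens (20.9%), 4 lower in muscle (4.67%), 8 lower in epithelium (6.96%) and 1 higher in cartilage (9.10%). DESeq2 gave 3 higher in lens (20.4%). The unfiltered fit and the stricter margin each gave 1 lower in cartilage (0.851% and 4.63%). The adult sections alone gave 4 lower in retina (24.5%), 9 higher and 4 lower in lens (29.7% and 18.3%) and 1 higher in epithelium (19.2%). The developmental sections alone gave 3 higher and 6 lower in lens (12.4% and 4.50%). They gave 1 higher and 2 lower in epithelium (7.14% and 1.14%), and 1 higher and 1 lower in cartilage (5.69% and 1.81%). Leaving out 1 section at a time gave 13 to 15 higher (26.2 to 37.3%) and 7 to 9 lower (21.2 to 25.8%) in retina. Lens had 3 to 5 higher (15.5 to 26.4%) and 7 to 9 lower (9.61 to 19.6%). Muscle had 12 to 13 higher (17.6 to 20.99%) and 4 to 7 lower (6.41 to 8.295%). Epithelium had 0 higher (8.41 to 15.6%) and 4 to 14 lower (2.88 to 11.99%). Cartilage had 3 to 6 higher (7.89 to 11.3%) and 0 to 2 lower (1.88 to 3.48%). The shares of all genes thus also moved between these fits.

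For development against adult, the stricter margin gave 1 member higher in development in retina, in muscle and in cartilage, and a minimum of 20 UMIs gave 1 in retina and 2 in epithelium. Shares of all genes are not given for the alternatives of this paragraph, apart from those stated above. Leiden clusters gave 1 in muscle and 3 in epithelium, and no retina value because no such cluster was found in the stage 4 head. Leaving out 1 adult eye gave 12 higher in development in lens, 0 to 1 higher in development and 0 to 1 higher in adult in retina, 1 to 2 and 3 to 4 in muscle, and 1 to 3 higher in development in cartilage. Leaving out the 50 most abundant adult lens genes, added after seeing the data, gave 3 in lens in place of 14. The number of members tested also differed between these runs. Lens spots had 13 tested with 1 adult eye left out, in place of 15. Epithelium spots had 12 tested with Leiden clusters, in place of 7. The pfkpa share in retina was 61.8% with Leiden clusters. Summed member levels with lens markers left out were 43707, 10011, 7986 and 7193 CPM, and with at least 500 UMIs a spot the adult eyes had 5151 and 4576 CPM. Depth limits the retina and cartilage sums, which held 42527 to 243504 UMIs. It also limits the epithelium sums (100372 to 214055 UMIs) and the muscle sums outside the stage 4 head (129781 to 161180 UMIs).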
